A study of Mus musculus with 6 samples.

Results

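The Hox genes of the 4 mouse clusters, Hoxa to Hoxd, were examined in undifferentiated embryonic stem (ES) cells and in Pax7-GFP cells. Members were taken by name, as every row of the array table annotated to a lone gene symbol of the form Hoxa, Hoxb, Hoxc or Hoxd followed by a number. This gave 37 rows for 36 genes, of 22180 genes measured in all. Hoxb5 has 2 rows, and Hoxa11 and Hoxd4, which share their rows with another symbol, were not analysed here. A further 7 rows carried a Hox symbol beside another symbol and could not be assigned to either gene. Their differences between the groups ran from -0.14 to 1.72 on the log2 scale, with 1 row at a difference of at least 1.

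The ES group comprised 3 arrays of undifferentiated, pluripotent mouse ES cells. The Pax7-GFP group comprised 3 arrays of cells derived from mouse ES cells by 3 weeks of differentiation toward muscle and sorted for the green fluorescence of a Pax7 reporter, with the gate set on undifferentiated cultures of that line. Pax7 marks muscle progenitors and encodes a paired-box factor. The labels call the replicates biological but do not say how the cultures were kept apart, so the p-values reflect variation among these samples only, which may be technical. No array of unsorted or embryo-derived muscle cells was used here, so the ES cells are the only reference.

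Hox genes encode homeodomain transcription factors that give cells their position along the head-to-tail axis. Within a cluster the genes lie in order of their paralogue groups, 1 to 13, and genes of low number, toward the 3' end, come on earlier in the embryo and reach further toward the head than genes of high number. In ES cells the clusters are known to be held silent by Polycomb complexes. In the trunk, the Hox genes active in a somite, the source of skeletal muscle, mark its level along the body.

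All values below are log2 signals from RMA, which puts arrays on a shared scale and combines each probe set's probes into 1 value. Differences are Pax7-GFP minus ES. A gene was called at a limma adjusted p under 0.05 together with at least a 2-fold difference, which is 1 on the log2 scale. Levels of different probe sets depend on their probes and were not set against each other, so only differences are compared between genes. RMA understates differences of genes near background, and no detection calls accompany the values. Each array measured a bulk population, in which more cells with a transcript and more transcript per cell cannot be told apart. Array medians lay between 5.61 and 5.69. The labels matched the marker genes: Nanog, a pluripotency factor, lay at 11.93 to 12.07 on the ES arrays and at 4.96 to 5.26 on the Pax7-GFP arrays. Pax7 lay at 5.63 to 5.77 and 10.65 to 11.15. Myf5, a muscle determination factor, was higher in Pax7-GFP cells by 5.16.

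Sequences just upstream of 4 Hox genes are shown to let the reader compare promoters of members that differed in response. Hoxa2, Hoxa5 and Hoxd8 were higher in Pax7-GFP cells, and Hoxa13, at the 5' end of the Hoxa cluster, was not. Each run is the 250 bases before the annotated gene start, 5' to 3' on the gene's strand, from RefSeq (GRCm38.p6). Capitals mark matches to the motifs searched.
Hoxa2, chr6:52164832-52165081, minus strand: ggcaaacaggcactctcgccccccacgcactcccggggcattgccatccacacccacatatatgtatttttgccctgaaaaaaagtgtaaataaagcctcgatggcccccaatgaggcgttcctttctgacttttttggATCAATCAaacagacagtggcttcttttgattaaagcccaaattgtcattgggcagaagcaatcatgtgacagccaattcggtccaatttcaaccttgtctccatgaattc
Hoxa5, chr6:52204588-52204837, minus strand: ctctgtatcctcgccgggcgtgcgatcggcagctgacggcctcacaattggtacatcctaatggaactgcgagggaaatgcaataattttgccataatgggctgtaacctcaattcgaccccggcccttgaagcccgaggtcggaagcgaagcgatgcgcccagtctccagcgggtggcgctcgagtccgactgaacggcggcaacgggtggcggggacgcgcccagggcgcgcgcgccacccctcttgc
Hoxd8, chr2:74704365-74704614, plus strand: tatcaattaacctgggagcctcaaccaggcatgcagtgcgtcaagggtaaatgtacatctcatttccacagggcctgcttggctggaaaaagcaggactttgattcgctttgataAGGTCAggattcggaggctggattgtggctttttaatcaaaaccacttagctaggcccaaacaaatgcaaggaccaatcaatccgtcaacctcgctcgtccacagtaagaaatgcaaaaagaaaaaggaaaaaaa
Hoxa13, chr6:52260881-52261130, minus strand: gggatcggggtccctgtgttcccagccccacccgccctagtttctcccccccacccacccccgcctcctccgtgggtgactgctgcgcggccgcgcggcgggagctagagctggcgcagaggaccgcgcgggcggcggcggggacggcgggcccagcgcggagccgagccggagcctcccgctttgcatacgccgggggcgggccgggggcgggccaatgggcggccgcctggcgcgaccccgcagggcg
Motifs were searched on both strands in windows of 300 bases, from 250 before to 50 after the start. They were AGGTCA, a Cdx factor motif TTTATG and a Hox-Pbx motif TGATTGAT. Retinoic acid receptors share AGGTCA with other nuclear receptors, so a lone match does not mark a retinoic acid receptor site. Windows were found for 20 of the 36 Hox genes, 22 windows in all, including 6 of the 10 genes called higher. AGGTCA stood in 3 of the 6 windows of called genes and 3 of the 16 windows of uncalled genes, against 16.3% of 32851 promoters. For TTTATG the counts were 0 of 6 and 4 of 16, against 11.9%, and for TGATTGAT 1 of 6 and 1 of 16, against 0.746%. The printed stretch of Hoxa2 holds a reverse-strand TGATTGAT and that of Hoxd8 an AGGTCA, while the AGGTCA of Hoxa5 lies after its start and is not printed. Hox windows were rich in CG dinucleotides, with a median of 17.0 against 7.0 over all promoters, and the median was 14.5 in windows of called and 17.0 in windows of uncalled genes. A motif match is a description of the letters and not evidence of binding.

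In Pax7-GFP cells 10 of the 36 Hox genes were higher, and the 10 lay in paralogue groups 2 to 6 and 8. They were Hoxa2, Hoxa3, Hoxa4, Hoxa5 and Hoxa6, Hoxb3, Hoxc4, Hoxc5 and Hoxc6, and Hoxd8. They make up 27.8% of the Hox genes, while 7.34% of all genes were called higher. In limma's fit 0 Hox genes were called lower, against 7.15% of all genes, and 6 were lower at an unadjusted p under 0.05. For counts at an unadjusted p, here and below, no share over all genes was computed, so they cannot be set against one. Without a minimum fold, 16 Hox genes were higher and 5 were lower at an adjusted p under 0.05. These are 44.4% and 13.9% of the Hox genes, beside 19.7% and 21.4% of all genes. The median difference was 0.22 over the Hox genes and 0.024 over all genes. The groups did not overlap in 27 Hox genes, against 51.9% of all genes. Every Pax7-GFP array lay above every ES array in 20 of them (55.6%, against 26.2% of all genes), and below in 7 (19.4%, against 25.6%).

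By position along the clusters, the anterior genes (groups 1 to 3) had 3 of 7 members higher, against 7.34% of all genes. The median difference of the 7 was 0.75. The central genes (groups 4 to 8) had 7 of 14 higher with a median of 0.97. In 13 of the 14 (92.9%, against 26.2% of all genes) every Pax7-GFP array lay above every ES array. The posterior genes (groups 9 to 13) had 0 of 15 called in either direction, against 14.5% of all genes. In a set of this size that share amounts to few genes. The posterior median was -0.17. At an adjusted p under 0.05 and any fold in limma's fit, 1 posterior gene was higher and 5 were lower. Over all genes these shares were 19.7% and 21.4%. At an unadjusted p under 0.05 the posterior counts were 2 and 6. By cluster, Hoxa had 5 of 9 members higher (median 1.08), Hoxc 3 of 9 (0.21), Hoxb 1 of 10 (0.22) and Hoxd 1 of 8 (0.031). The Hoxb and Hoxd shares, 10% and 12.5%, lay near the 7.34% of all genes called higher. Differences between clusters or between positions were not tested.

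**Figure D1:**
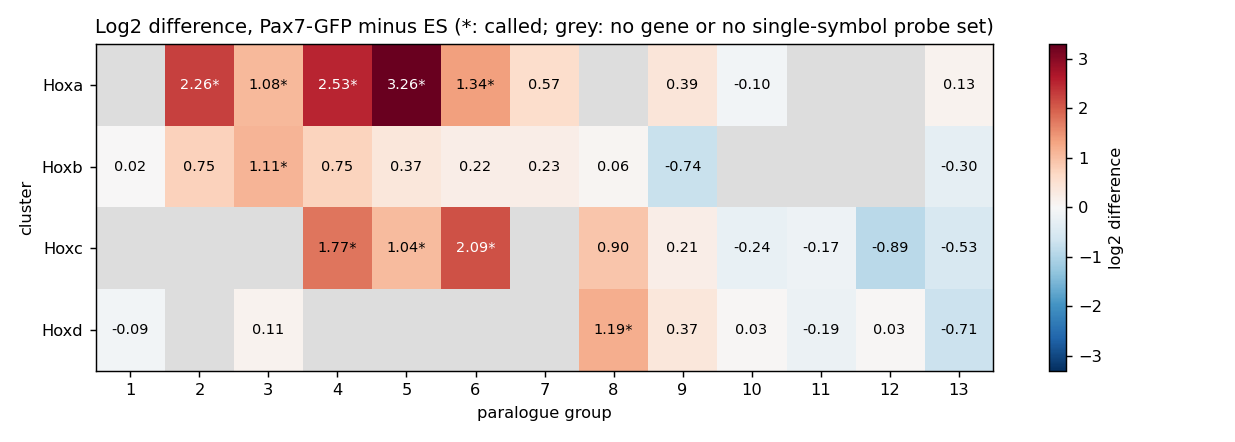
Log2 differences between Pax7-GFP and ES cells (means of 3 arrays each) for the 36 Hox genes, with clusters as rows and paralogue groups as columns; colour and number both give the difference, and asterisks mark called genes. The called genes sit in groups 2 to 6 and 8, and the largest difference is 3.26, for Hoxa5.

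The Hoxa cluster showed an unbroken run of higher genes from Hoxa2 to Hoxa6. In the RefSeq annotation an antisense RNA, Hoxaas3, overlaps Hoxa3, Hoxa5 and Hoxa6. The strand the probes read was not stated, so signals of these genes and of Hoxaas3 cannot be told apart. Hoxa5, which patterns the cervical and upper thoracic skeleton and the lung, had the largest difference of all Hox genes. Its signal was 4.76, 4.75 and 4.59 on the ES arrays and 8.21, 7.32 and 8.34 on the Pax7-GFP arrays. It rose by 3.26 (SE 0.24), or 9.56-fold (limma, adjusted p = 1.34e-05), and the groups were separated by more than their whole spread. Hoxa4, its neighbour toward the 3' end and a factor of cervical vertebrae, was at 5.71, 5.54 and 5.22 in ES cells and at 8.08, 7.62 and 8.34 in Pax7-GFP cells. This is a rise of 2.53 (SE 0.19, limma adjusted p = 1.63e-05). Hoxa2, which specifies hindbrain segments and the second pharyngeal arch, lay at 5.55, 5.47 and 5.15 and at 7.98, 7.17 and 7.80, and rose by 2.26 (SE 0.21, limma adjusted p = 4.78e-05). For each of these genes every Pax7-GFP array stood far above every ES array.

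Hoxa3 and Hoxa6 rose less. Hoxa3, needed for the thymus and parathyroid, was at 5.33, 5.58 and 5.48 in ES cells and at 6.75, 6.26 and 6.62 in Pax7-GFP cells, a rise of 1.08 (SE 0.14, limma adjusted p = 0.000311). Without Pax7-GFP replicate 1 its difference was 0.98, just short of 2-fold. Hoxa6 was at 5.56, 5.51 and 5.72 and at 6.93, 6.52 and 7.37, a rise of 1.34 (SE 0.19, limma adjusted p = 0.000604). Beyond Hoxa6 the differences became small. Hoxa7 stood at 6.45, 6.55 and 6.46 in ES cells and at 7.03, 7.13 and 7.02 in Pax7-GFP cells, a separated difference of 0.57 (limma adjusted p = 0.000535) that was below 2-fold. Hoxa9 differed by 0.39 (limma adjusted p = 0.00775), Hoxa10 by -0.10 and Hoxa13 by 0.13, the last of these and Hoxa10 with overlapping groups and limma adjusted p-values of 0.363 and 0.393. Along the cluster, then, the differences were at least 1.08 from Hoxa2 to Hoxa6 and under 0.6 from Hoxa7 on.

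**Figure D2:**
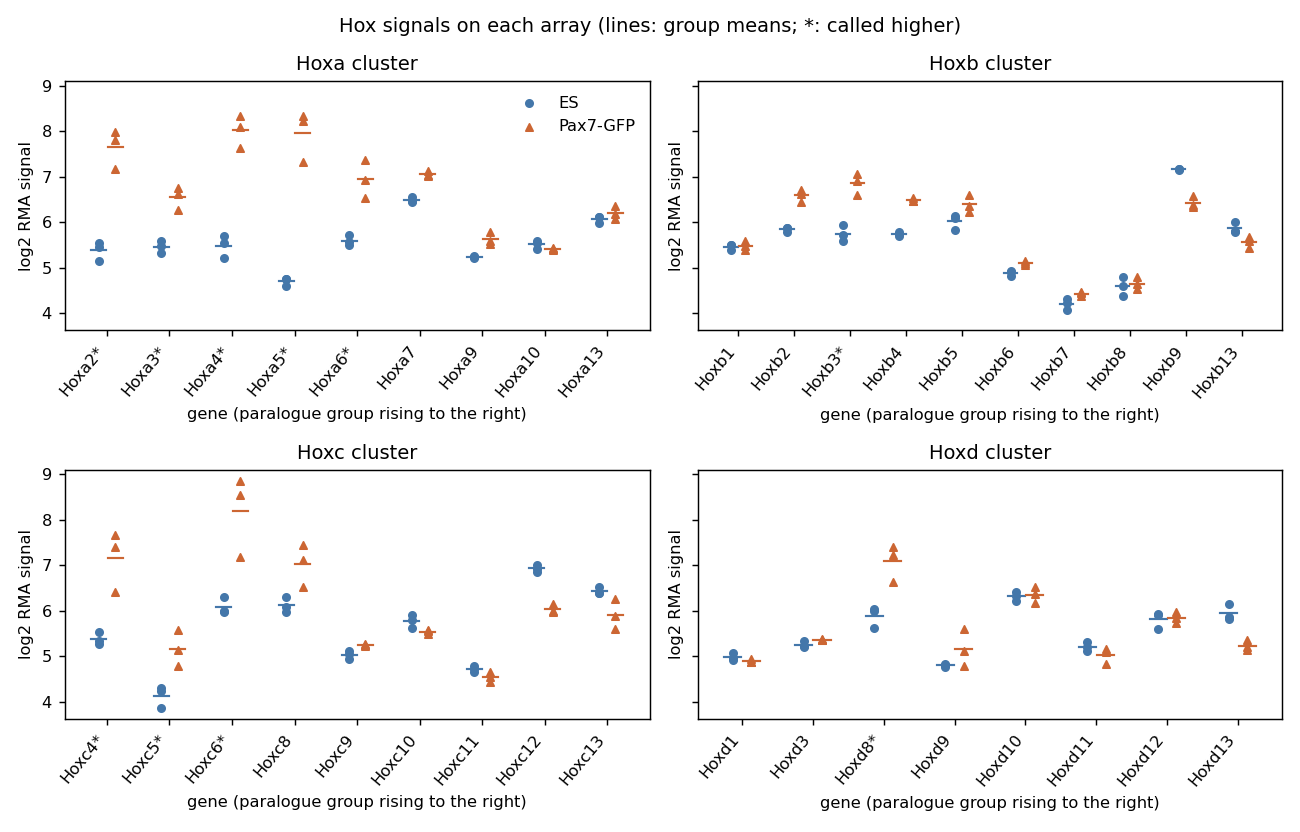
Log2 RMA signals of the 36 Hox genes on each of the 3 ES arrays (circles) and 3 Pax7-GFP arrays (triangles), by cluster, with lines at the group means and asterisks on called genes. Triangles clear the circles in the left part of the Hoxa and Hoxc panels, from Hoxb2 to Hoxb7 and at Hoxd3 and Hoxd8. The gaps at Hoxb5, Hoxb6, Hoxb7 and Hoxd3 are narrow. At the right ends of the Hoxb and Hoxc panels the triangles lie at or below the circles.

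The Hoxc cluster, which has no genes of groups 1 to 3, rose at its 3' end. Hoxc6, a gene of the thoracic region, was at 5.99, 5.99 and 6.32 in ES cells and at 8.85, 7.17 and 8.53 in Pax7-GFP cells, a rise of 2.09 (SE 0.38, limma adjusted p = 0.00224). Its Pax7-GFP SD of 0.89 was the largest of the Hox genes and came from the low second array. Hoxc4 was at 5.54, 5.28 and 5.34 and at 7.66, 6.41 and 7.39, a rise of 1.77 (SE 0.28, limma adjusted p = 0.00111). Hoxc5, between them, had low signals in both groups, 4.30, 3.88 and 4.24 against 5.15, 4.79 and 5.59. It rose by 1.04 (SE 0.20, limma adjusted p = 0.00336), and this call rests on single arrays: the difference was 0.90 without ES replicate 2 and 0.83 without Pax7-GFP replicate 3. It also fell short of 2-fold, at 0.92, with a floor under dim signals.

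Further along Hoxc the difference shrank and then turned. Hoxc8, another thoracic gene, was at 5.98, 6.30 and 6.09 in ES cells and at 7.45, 6.51 and 7.12 in Pax7-GFP cells, so the groups did not overlap. Its difference of 0.90 (SE 0.22, limma adjusted p = 0.00991) was below 2-fold, and was 1.16 and called without Pax7-GFP replicate 2. Hoxc9, Hoxc10 and Hoxc11 differed by 0.21, -0.24 and -0.17, with limma adjusted p-values between 0.0770 and 0.167. Hoxc12 and Hoxc13 at the 5' end were lower in Pax7-GFP cells, at -0.89 and -0.53 (limma adjusted p = 7.37e-05 and 0.0255), both short of 2-fold.

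In the Hoxb cluster the differences peaked at Hoxb3 and fell away on both sides. Hoxb3, a hindbrain and cervical gene, was at 5.93, 5.59 and 5.73 in ES cells and at 7.07, 6.60 and 6.91 in Pax7-GFP cells, a rise of 1.11 (SE 0.14, limma adjusted p = 0.000289). Its neighbours Hoxb2 and Hoxb4 missed the 2-fold minimum. Hoxb2 was at 5.87, 5.79 and 5.86 against 6.72, 6.44 and 6.63, and Hoxb4 at 5.70, 5.75 and 5.78 against 6.47, 6.54 and 6.47. These are differences of 0.75 each (SE 0.095 and 0.076), with limma adjusted p-values of 0.000296 and 8.86e-05. The 95% intervals of both differences, 0.53 to 0.97 for Hoxb2 and 0.57 to 0.92 for Hoxb4, left out a 2-fold change.

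Hoxb1 at the 3' end differed by 0.023, with overlapping groups and a 95% interval of -0.18 to 0.23. The main probe set of Hoxb5 differed by 0.37 (limma adjusted p = 0.0458) and its other probe set by 0.55, tested over all probe sets with a lone symbol (limma adjusted p = 0.0138). The strand each of the 2 probe sets reads is not given in the sources used here. Hoxb6 and Hoxb7 were separated between the groups by only 0.22 and 0.23 (limma adjusted p = 0.0551 and 0.0768), and Hoxb8 differed by 0.061. Hoxb9 went the other way, from 7.17, 7.17 and 7.15 in ES cells to 6.33, 6.57 and 6.37 in Pax7-GFP cells, a difference of -0.74 (SE 0.090, limma adjusted p = 0.000236). Hoxb13, the last gene of the cluster, differed by -0.30 (limma adjusted p = 0.0448).

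Hoxd8 was the lone called gene of the Hoxd cluster. It was at 6.04, 5.63 and 6.01 in ES cells and at 7.40, 6.63 and 7.23 in Pax7-GFP cells, a rise of 1.19 (SE 0.20, limma adjusted p = 0.00156). Its measured neighbours on both sides were not called. Hoxd3 stood at 5.20, 5.23 and 5.33 against 5.37, 5.39 and 5.35, a difference of 0.11. Hoxd9 stood at 4.81, 4.83 and 4.77 against 5.60, 4.80 and 5.12, so that the second Pax7-GFP array lay among the ES arrays while the other two lay above them. Its difference was 0.37 (SE 0.18, limma adjusted p = 0.145). Hoxd1, Hoxd10, Hoxd11 and Hoxd12 differed by between -0.19 and 0.034, with overlapping groups. Hoxd13, the limb and genital gene at the 5' end, was at 5.87, 6.16 and 5.81 against 5.36, 5.14 and 5.21, a difference of -0.71 (SE 0.11, limma adjusted p = 0.00114).

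Paralogues, the corresponding genes of the clusters, did not share the size of their differences. In group 4 the differences were 2.53 for Hoxa4, 1.77 for Hoxc4 and 0.75 for Hoxb4. In group 5 they were 3.26 for Hoxa5, 1.04 for Hoxc5 and 0.37 for Hoxb5, and in group 6 they were 1.34, 2.09 and 0.22 for Hoxa6, Hoxc6 and Hoxb6. In groups 4 to 6 both the Hoxa and the Hoxc gene were called and the Hoxb gene was not. The 95% intervals of Hoxa4 (2.08 to 2.97) and Hoxb4 (0.57 to 0.92) did not meet, whereas those of Hoxa6 (0.90 to 1.79) and Hoxc6 (1.22 to 2.96) overlapped. Group 13 had 3 of its 4 genes lower at an adjusted p under 0.05 in limma's fit, Hoxb13, Hoxc13 and Hoxd13, at any fold. Across the 15 posterior genes the highest upper bound of a 95% interval was 0.78, for Hoxd9, so a 2-fold rise of these signals lay outside every interval. The 5 lower posterior genes are 33.3% of that class, against 21.4% of all genes.

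The 10 called genes shared an order among the Pax7-GFP arrays. Replicate 2 was the lowest in 10 of 10, while it was the lowest in 51.1% of the 1627 genes called higher over the whole array. The median rise of the 10 genes above the ES mean was 1.89 in replicate 1, 0.98 in replicate 2 and 1.89 in replicate 3. In replicate 2 the rises ran from 0.65 for Hoxc5 to 2.62 for Hoxa5. Hoxc6 showed the widest gap, with rises of 2.75, 1.08 and 2.44. Uncalled genes with a higher Pax7-GFP mean varied in this order. Replicate 2 was the highest of the Pax7-GFP arrays in some, such as Hoxb4, Hoxa7, Hoxa9 and the main Hoxb5 probe set. It was the lowest in others, such as Hoxb2, Hoxc8 and Hoxd9. The median Pax7-GFP SD of the 10 genes was 0.41, against 0.14 over all genes, and their median ES SD was 0.18, against 0.084. Without replicate 2 the same 10 genes were called, with Hoxc8 added. The mean log2 signal of 6 myogenic markers was 10.19, 10.02 and 10.27 on the Pax7-GFP arrays in order, and that of 6 fibroblast markers was 7.82, 7.67 and 7.43. Their part in the order of the Hox signals was not tested.

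**Figure D3:**
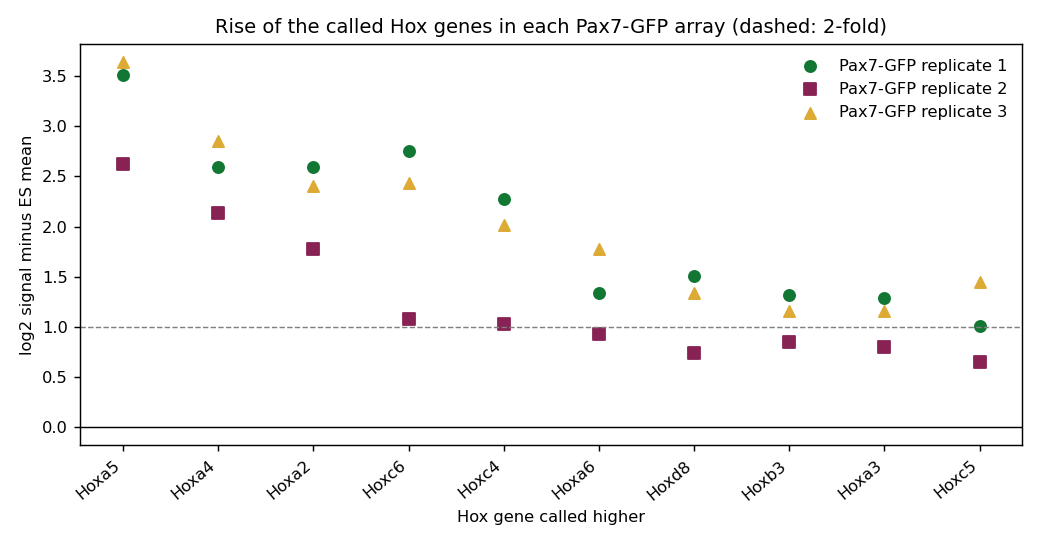
Log2 signal minus the ES mean for the 10 called Hox genes in each of the 3 Pax7-GFP arrays, with a dashed line at a 2-fold rise. Replicate 2 (squares) is the lowest array for every gene shown and lies under the dashed line for Hoxa6, Hoxd8, Hoxb3, Hoxa3 and Hoxc5.

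Other cell types of the trunk also carry Hox transcripts, so their markers are given beside these counts. Over all genes, 7.34% were called higher and 7.15% lower. Of 8 markers of lateral and intermediate mesoderm, 2 were called higher, Osr1 by 2.57 and Prrx1 by 1.93, and 0 lower. The mean log2 signal of these 8 was 5.63 to 5.76 on ES arrays and 6.35 to 6.45 on Pax7-GFP arrays. Of 6 fibroblast markers, 3 were higher, led by Dcn at 3.03, and 0 were lower, with means of 6.11 to 6.33 and 7.43 to 7.82. Of 6 neural tube markers 0 were higher and 3 were lower, led by Tubb3 at -4.30, with means of 6.87 to 6.96 and 5.46 to 5.64. Of 5 endothelial markers Cdh5 was higher, at 1.41, and Pecam1 lower, at -2.43. Of 5 haematopoietic markers Runx1 was higher, at 4.33, and 2 were lower, led by Laptm5 at -2.81. At an unadjusted p under 0.05 in limma's fit, 0 markers were lower in the mesoderm and fibroblast lists and 0 were higher in the neural tube list. The part of such cells in the Hox signals was not tested.

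Noncoding RNAs that lie inside the clusters were measured for 7 of 16 listed genes. Of these 1 was higher and 1 lower, beside 7.34% and 7.15% of all genes. Hoxaas3, an antisense RNA of the Hoxa cluster, was at 5.73, 5.50 and 5.77 in ES cells and at 7.07, 6.61 and 6.89 in Pax7-GFP cells. It rose by 1.19 (SE 0.13, limma adjusted p = 0.000150). In the RefSeq annotation it overlaps Hoxa3, Hoxa5 and Hoxa6. The strand the probes read was not stated, so its signal and theirs cannot be told apart. Mir196a-1, a microRNA gene between Hoxb13 and Hoxb9, went from 6.33, 6.64 and 6.60 to 4.33, 4.51 and 4.54. It fell by 2.06 (SE 0.11, limma adjusted p = 2.20e-06), beside the lower Hoxb9. Mir196a-2, between Hoxc10 and Hoxc9, gives the same mature microRNA and differed by -0.0075. Mir10b, inside Hoxd4, differed by 0.026 and Mir615, inside Hoxc5, by 0.18. The mature sequences are shown because miR-196a is a known repressor of Hox transcripts of the central groups. The seed, bases 2 to 8, is in capitals, from RefSeq (GRCm38.p6).
miR-196a-5p, from Mir196a-1 and Mir196a-2: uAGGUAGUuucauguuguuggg
miR-10b-5p, from Mir10b: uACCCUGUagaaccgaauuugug
miR-615-3p, from Mir615: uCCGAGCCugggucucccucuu
The 3 microRNAs have different seeds. Array probes of total RNA need not measure the mature form, so these values describe the probe sets annotated to the microRNA genes.

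Hox proteins bind DNA with TALE homeodomain partners, and 8 of 9 listed TALE genes were measured. Of the 8, 4 were called higher (50%) and 0 lower, beside 7.34% and 7.15% of all genes. Meis1 was at 5.36, 5.38 and 5.56 in ES cells and at 8.38, 7.99 and 8.57 in Pax7-GFP cells, a rise of 2.88 (SE 0.15, limma adjusted p = 1.65e-06). Pknox2, Pknox1 and Pbx3 rose by 2.05, 1.46 and 1.06. Meis2, Meis3, Pbx2 and Pbx4 differed by between -0.49 and -0.066. The median over the 8 genes was 0.50, and 2 were lower at an unadjusted p under 0.05 in limma's fit.

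Among signals and factors known to start Hox expression, 3 of 11 were higher and 2 were lower, beside 7.34% and 7.15% of all genes. Rarb, a retinoic acid receptor and itself a retinoic acid target, was at 4.96, 4.69 and 4.60 and at 7.19, 6.38 and 6.71, and rose by 2.01 (SE 0.20, limma adjusted p = 6.58e-05). The receptor Rara and the growth factor Gdf11, which acts on posterior Hox genes, rose by 1.04 and 1.73. Aldh1a2, which makes retinoic acid, fell by 1.09 and Cdx1, a caudal-type activator of Hox genes, fell by 1.08. Cdx2, Cdx4, Fgf8, Wnt3a, Cyp26a1 and Rarg were not called. The list's median was -0.020.

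Polycomb genes, whose products keep Hox clusters silent, had 7 of 20 measured members lower and 2 higher, beside 7.15% and 7.34% of all genes. The median of the list was -0.16. At an adjusted p under 0.05 and any fold in limma's fit, 8 members were lower and 5 higher. These are 40% and 25% of the list, beside 21.4% and 19.7% of all genes. Cbx7, a PRC1 subunit of ES cells that reads methylated histone H3, averaged 9.92 ± 0.084 (SD, n = 3) in ES cells and was at 6.72, 6.64 and 6.24 in Pax7-GFP cells. It fell by 3.38 (SE 0.13, limma adjusted p = 4.02e-07). The PRC2 genes Mtf2, Jarid2, Eed and Suz12 fell by 2.09, 1.97, 1.76 and 1.16, and Ezh2, the main methyltransferase, was not called, at -0.11. Phc2 showed the largest rise, 1.26, beside Phc3. Of 9 genes of the opposing trithorax complexes and H3K27 demethylases 0 were higher and 4 were lower, beside 7.34% and 7.15% of all genes. The median of that list was -0.58. Ash2l, a core subunit of the H3K4 methyltransferases, fell by 2.15 (SE 0.095, limma adjusted p = 7.37e-07), and the demethylase gene Kdm6b stood at 0.83, below 2-fold, the 1 member higher at an unadjusted p under 0.05 in limma's fit. The members of these lists change in an ES comparison alongside 14.5% of all genes.

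**Figure D4:**
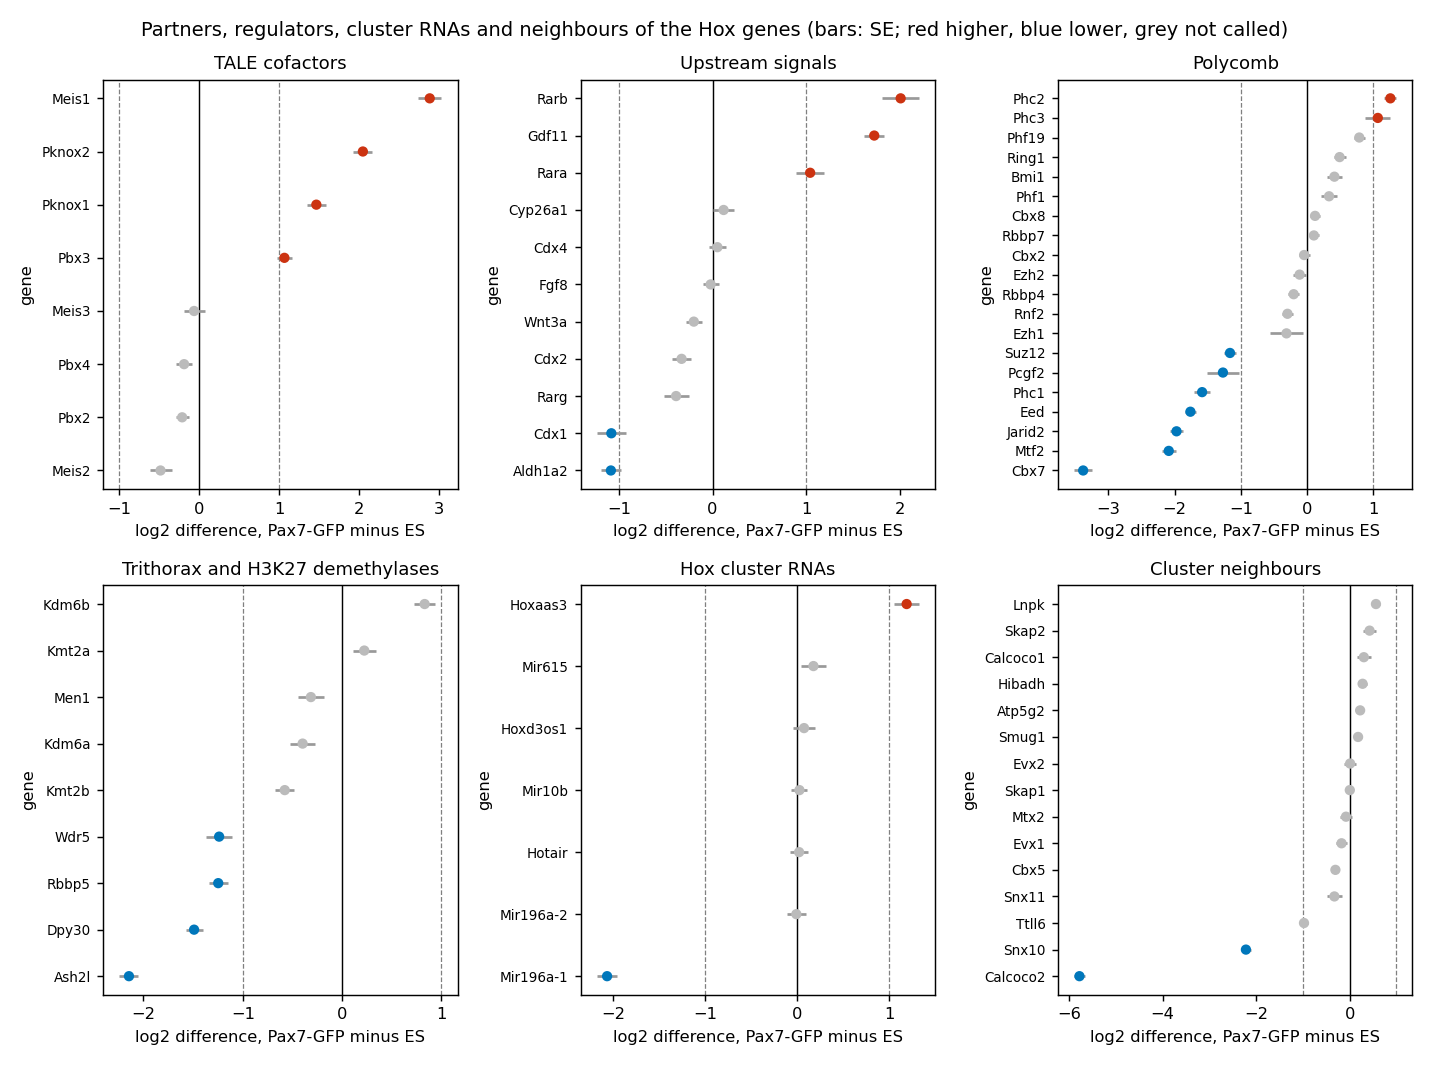
Log2 differences (points) with their standard errors (bars) for Hox partners, upstream signals, Polycomb and trithorax genes, cluster RNAs and the protein-coding neighbours of the clusters; dashed lines mark 2-fold. Higher calls (red) lead in the TALE panel, where Meis1 stands at 2.88, and lower calls (blue) lead in the Polycomb panel, where Cbx7 stands at -3.38.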

How the data were processed

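Expression was measured on 6 single-colour arrays, 3 per group, grouped and numbered by the sample titles. The deposited values are log2 RMA signals per probe set, made by the authors with RMA in R 2.12.1, per the submitters' processing notes. RNA was amplified in a double round and labelled with biotin, per the labels' protocols. For RMA options, probe strands and genome build nothing was stated in the sources used here. The table held 41345 rows. GEO's platform annotation gave 23521 a lone symbol and 1814 several, and 16010 were unnamed here. A gene was read at its lone-symbol probe set with the highest mean, for 22180 genes, with no filter on dim genes.

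Groups were compared with limma 3.58.1 in R 4.3.3 (lmFit, eBayes, two-sided), with Benjamini-Hochberg adjustment over all genes. The fit was tested on simulated data. Intervals are 95% intervals of the moderated fit. The number of arrays limits the precision. All Hox genes are accounted for: values on every array are given for called members and uncalled neighbours, and other lists are represented by their largest called changes, with further members named after their values were seen. The members, lists and thresholds were chosen with earlier results of these data known. Neighbours and promoters came from RefSeq (GRCm38.p6). Alternatives changed the scaling, floor, filter, probe set rule, unit, fold threshold, variance prior, weights, block and arrays.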

Additional observations from a re-analysis of the deposited data

How the results depend on the processing

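The 10 higher Hox genes were called again after median centring, repeated quantile normalization, the mean of probe sets, a test of every probe set with a lone symbol, an intensity trend, array weights and the replicate block. A signal floor left 9, without Hoxc5. A filter on dim genes kept only 23 of the 36 Hox genes, and 9 were called. Hoxc5 was filtered out, as were the posterior genes Hoxa9, Hoxa10, Hoxc9, Hoxc11, Hoxd9 and Hoxd11. So were Hoxb1, Hoxb6, Hoxb7, Hoxb8, Hoxd1 and Hoxd3. RMA understates differences near background, so the small differences of these dim genes may be understated. With that filter the posterior count covers only the posterior genes that were kept. Leaving out single arrays gave 9 to 11. Other thresholds change the counts directly. With no fold minimum 9126 genes passed, with 16 Hox genes higher and 5 lower. A 4-fold minimum left 1010 genes and 4 Hox genes, and a limma test against 2-fold left 1713 and 3. Posterior Hox genes called higher numbered 0 in every setting except no minimum fold, which had 1, Hoxa9.

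Signs turned only in uncalled genes near 0. Hoxb1 stood at -0.00076 after centring and -0.0059 with array weights, and Hoxd10 at -0.026 with array weights. Over the fits that leave out 1 array, Hoxb1 ranged from -0.028 to 0.075 (-0.015 without ES replicate 2), Hoxb8 from -0.045 to 0.16 (-0.0066 without Pax7-GFP replicate 1), Hoxd10 from -0.052 to 0.13 (-0.019 without ES replicate 2) and Hoxd12 from -0.078 to 0.086 (-0.032 without Pax7-GFP replicate 2). Deviations from the group means correlated across genes at r = -0.11, -0.22 and 0.0069 between same-numbered arrays of the groups. Between differently numbered arrays r ran from -0.077 to 0.20. Such correlations cannot tell whether samples of 1 number were handled together. With the replicate block 3213 genes were called, against 3212. The lack of detection calls limits what can be said of dim genes.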

Other observations

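Of the protein-coding genes nearest to the clusters, 2 on each side, 15 were measured. Among them 0 were called higher and 2 lower, beside 7.34% and 7.15% of all genes. Their median difference was 0.0038. At an adjusted p under 0.05 and any fold in limma's fit, 20% were higher and 26.7% lower, beside 19.7% and 21.4% of all genes. At an unadjusted p under 0.05 in limma's fit 4 were higher and 4 lower. Calcoco2, an autophagy receptor gene beyond the 5' end of Hoxb, was at 10.42, 10.29 and 10.19 in ES cells and at 4.53, 4.68 and 4.35 in Pax7-GFP cells. It fell by 5.78 (SE 0.11, limma adjusted p = 1.87e-08). Snx10, a sorting nexin gene beyond the 3' end of Hoxa, fell by 2.22 (SE 0.11, limma adjusted p = 1.34e-06). The other two lower genes, Ttll6 and Cbx5, differed by -0.98 and -0.30, short of 2-fold (limma adjusted p = 5.28e-05 and 0.0171). The genes directly beside the clusters at their 3' ends, Skap2, Skap1, Smug1 and Mtx2, differed by 0.43, 0.0038, 0.18 and -0.078. Evx1 and Evx2, homeobox genes beyond the 5' ends of Hoxa and Hoxd, differed by -0.17 and 0.011.

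Of 10 measured homeobox genes of related families outside the clusters, 0 were called higher and 1 lower, beside 7.34% and 7.15% of all genes. The lower gene was Gbx2, a hindbrain and pluripotency-associated factor, at -1.28 (SE 0.11, limma adjusted p = 2.74e-05). Meox1, a somite gene, stood at 0.38 (limma adjusted p = 0.0308), below 2-fold, and Meox2 at 0.14. The median over the 10 genes was -0.0019, and at an unadjusted p under 0.05 in limma's fit 2 were higher and 1 was lower.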
